A study of Mus musculus with 32 samples.

Results

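Wildtype (WT) lungs were taken from mice that carried a primary mammary tumor and compared with lungs of WT mice that carried none, to describe across all genes how normal lung differs while a tumor grows at a distant site. The lungs were chosen by their labels as WT lungs at 14 days (n = 6) or WT lungs of the control group (n = 4), which gave 10 of the 32 samples of the series. The study asked how the chloride intracellular channel protein CLIC4 in the host affects breast cancer, and its other samples were lungs and tumors of *Clic4* knockout (KO) hosts and tumors of WT hosts. All mice were female virgin FVB/N mice, 6 to 8 weeks old when used. At day 0, 100000 cells of 6DT1, a mouse mammary tumor line derived from an MMTV-Myc tumor of the same strain, were injected into the mammary fat pad. The 14-day lungs were collected 14 days later, and the control lungs came from other WT animals without a tumor, so no lung was compared with itself before the tumor. The age of the control mice at collection is not given in the sources used here. A difference in age, or the injection itself, cannot be told apart from the tumor. Tumor-bearing and control WT mice carried no other allele or treatment that the labels name, and KO lungs (n = 10) enter only as a second set for comparison. Lungs were separated into 5 lobes and frozen, and each sample was bulk RNA of lung tissue, in which cell types are mixed. Which lobes were used is not given in the sources used here.

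Tumors can act on the lung before any metastasis is seen there. They release cytokines that mobilize neutrophils from the bone marrow, and in the lung neutrophils, macrophages, endothelial cells and the matrix laid down by fibroblasts are the components whose change is described as a pre-metastatic niche. The lung also has resident alveolar macrophages, alveolar type 1 and type 2 epithelial cells and a dense capillary bed, whose marker genes were listed beside those of incoming cells.

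The WT lungs had between 5077107 and 8318711 counts assigned to genes, and the largest library was control replicate 1. Values are given as CPM, counts scaled to library size with TMM factors, unless FPKM is named. Lung markers had high levels per transcript length in both groups. *Sftpc*, the surfactant protein of alveolar type 2 cells, was at 8627 ± 911 FPKM (SD, n = 4) in control and 8126 ± 296 FPKM (SD, n = 6) in 14-day lungs, and *Scgb1a1*, the secretory protein of club cells, at 23147 ± 1820 and 24673 ± 1642 FPKM. *Myh6*, a myosin heavy chain of heart atria, was at 387 to 508 CPM in control and 409 to 660 CPM in 14-day lungs, so heart muscle RNA was present in all 10 WT lungs. None of the 7 tested mammary epithelial markers passed the test, and their median log2 fold change was -0.01. The other 8 of the list, such as *Krt14*, *Krt5* and *Wap*, had too few counts for a test. The list summed to 498 to 523 CPM in the tumor-free controls, so it could not show whether tumor cells were present. Interferon-induced genes set 14-day replicate 5 and control replicate 4 apart from the other lungs of their groups, as described with those genes.

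Of 16029 genes tested, 92 differed between 14-day and control WT lungs by at least 1.5-fold at an FDR under 0.25 (edgeR's quasi-likelihood test, Benjamini-Hochberg adjustment), and genes past both limits are referred to as called. In 14-day lungs 53 of them were higher, which is 0.331% of the genes tested, and 39 were lower, which is 0.243%. At any fold, 373 genes passed the FDR, of which 189 were higher (1.18%) and 184 were lower (1.15%). No gene had an FDR under 0.05 in this edgeR fit of the 20 lungs, where 1884 had an unadjusted p under 0.05. DESeq2 on the same lungs gave 79 at that FDR, and edgeR with a replicate block gave 13. The differences were small, with a median size of 0.38 on the log2 scale among the 373 genes, and 50 of the 92 called genes had a mean level under 5 CPM. In 45 of the 92 called genes the 6 lungs of tumor-bearing mice did not overlap with the 4 control lungs, while over all genes tested 1.63% lay wholly above and 1.35% wholly below the controls. These counts depended on single lungs, with 11 to 176 called genes and 43 to 753 at any fold when 1 WT lung was left out, fewest without control replicate 2 and most without 14-day replicate 3. They were 53 and 147 with offsets for the GC trend.

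**Figure D1:**
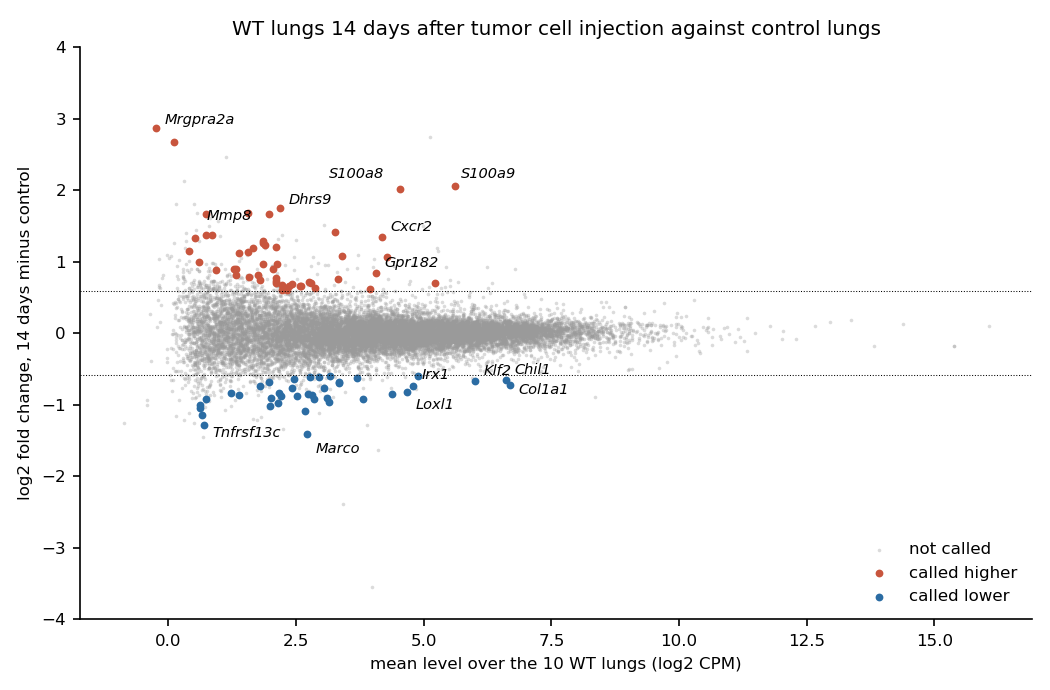
Log2 fold change in WT lungs (14 days minus control) against the mean level over the 10 WT lungs on a log2 CPM scale, with 1 point a gene and dotted lines at a 1.5-fold change. The 53 called genes that were higher and the 39 that were lower mostly lie at low levels. *Rps12l1* and *Gm37371*, which had no count in any control lung, are off the scale and not drawn.

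Genes of mature neutrophils were among those that rose in the WT lungs. Of 23 tested genes of the mature neutrophil list, 20 had a positive log2 fold change, 4 passed the test upward and none downward, against 1.18% upward and 1.15% downward of all genes tested, and the median was 1.03, against 0.00 over all genes tested. The 4 were *Cxcr2*, the chemokine receptor by which neutrophils leave the bone marrow, *S100a8* and *S100a9*, the subunits of calprotectin, and *Mmp8*, the neutrophil collagenase. In bulk RNA a change in the number of cells of a type and a change in RNA per cell cannot be told apart, for these and all other genes described. Their promoter windows are shown for *S100a8*, *S100a9* and *Mmp8* beside that of *Dhrs9*, the most strongly supported gene that rose, because the TATA motif was found in 8 of 29 windows of called genes that were higher (27.6%), in 2 of 25 of those that were lower (8.0%) and in 7.57% of 10767 windows of tested genes. The sequences are RefSeq windows of 300 bases on GRCm38.p6, from 250 bases before to 50 after the annotated start, 5′ to 3′ on the strand of the gene, with capitals for TATAAA or its complement and, in *Dhrs9*, also for TGACTCA, the AP-1 motif.
S100a8 (chr3:90668821-90669120, plus strand): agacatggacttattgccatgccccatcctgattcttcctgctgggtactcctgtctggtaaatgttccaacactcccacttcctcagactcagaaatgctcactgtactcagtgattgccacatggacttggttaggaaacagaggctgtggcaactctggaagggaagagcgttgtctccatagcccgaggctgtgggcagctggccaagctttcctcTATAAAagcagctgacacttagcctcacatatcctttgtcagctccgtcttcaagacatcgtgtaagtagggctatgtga
S100a9 (chr3:90695672-90695971, minus strand): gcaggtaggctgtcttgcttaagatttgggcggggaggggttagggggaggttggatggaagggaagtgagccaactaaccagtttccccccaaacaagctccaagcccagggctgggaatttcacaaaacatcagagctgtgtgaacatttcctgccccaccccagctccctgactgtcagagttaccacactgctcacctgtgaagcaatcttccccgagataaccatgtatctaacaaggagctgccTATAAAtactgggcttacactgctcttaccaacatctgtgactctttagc
Mmp8 (chr9:7558179-7558478, plus strand): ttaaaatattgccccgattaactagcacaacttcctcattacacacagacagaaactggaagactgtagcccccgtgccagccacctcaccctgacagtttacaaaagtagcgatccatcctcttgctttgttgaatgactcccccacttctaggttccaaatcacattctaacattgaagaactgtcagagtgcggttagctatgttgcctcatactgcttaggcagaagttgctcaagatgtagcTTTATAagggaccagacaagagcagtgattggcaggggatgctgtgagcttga
Dhrs9 (chr2:69380212-69380511, plus strand): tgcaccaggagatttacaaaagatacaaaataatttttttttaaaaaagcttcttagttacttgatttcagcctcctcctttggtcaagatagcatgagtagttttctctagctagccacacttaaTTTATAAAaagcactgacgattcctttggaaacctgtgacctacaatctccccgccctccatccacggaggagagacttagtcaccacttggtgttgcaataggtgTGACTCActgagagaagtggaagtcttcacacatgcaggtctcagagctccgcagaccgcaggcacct

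In *S100a8* the motif began 30 bases before the annotated start, and in *S100a9* it lay at the annotated start itself. In *Mmp8* it was on the opposite strand, and in *Dhrs9* matches on the opposite strands overlapped, 122 and 124 bases before the start. The other windows of called and higher genes with the motif were those of *Cyp2e1*, *Pram1*, *Wfdc17* and *Gm19325*. The TATA motif was 1 of 12 motifs searched and was shown for its contrast, and among genes that passed at any fold it was in 10.9% of windows of higher and 6.87% of lower genes. The GC box GGGCGG was in 31.0% of windows of called and higher genes, 48.0% of lower genes and 61.9% of all tested genes, and the other 10 motifs were in at most 20.7%, 28.0% and 20.1%. The median GC content of the windows was 51.3% for called and higher genes, 61.0% for lower genes and 60.3% for all tested genes. The part of this base composition in the contrast of the TATA motif was not tested. Motif matches are a description of letters in these windows and were not tested.

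*Cxcr2* (ENSMUSG00000026180, chromosome 1 from 74153989 to 74161246) was at 9.64, 7.82, 10.6 and 9.88 CPM in the control lungs and at 14.1 CPM at the lowest, 25.01 at the median and 31.5 at the highest in the 14-day lungs. All 6 lungs of tumor-bearing mice were above all 4 controls, and the log2 fold change was 1.34 (SE 0.29, 95% CI 0.73 to 1.95, FDR 0.101). *S100a8* (ENSMUSG00000056054, chromosome 3 from 90668978 to 90670035) was at 7.23, 5.09, 8.303 and 12.1 CPM in controls and at 13.6, 27.2 and 65.1 CPM as the lowest, median and highest 14-day lungs. It was 4.05-fold higher (log2 2.02, SE 0.54, FDR 0.164), also without overlap. *S100a9* (ENSMUSG00000056071, chromosome 3 from 90692632 to 90695721) was at 15.1, 11.3, 17.0 and 24.3 CPM in controls and at 24.0, 61.9 and 135 CPM in 14-day lungs, and the lowest 14-day lung lay just under the highest control. Its log2 fold change was 2.05 (SE 0.56, FDR 0.169). *Mmp8* (ENSMUSG00000005800, chromosome 9 from 7558456 to 7568485) was at 1.33, 1.09, 1.51 and 2.92 CPM in controls and at 2.62, 3.42 and 11.4 CPM in 14-day lungs (log2 fold change 1.67, SE 0.51, FDR 0.209), where the groups overlapped.

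The 14-day lungs differed among themselves in these genes. The summed level of all 27 listed neutrophil genes was 291 to 372 CPM in the controls. It was 670, 791 and 649 CPM in 14-day replicates 3, 5 and 6, and 373, 394 and 327 CPM in replicates 1, 2 and 4, which were in or near the range of the controls. With each WT lung left out in turn, *Cxcr2* passed in 9 of 10 fits and *S100a8*, *S100a9* and *Mmp8* each in 6 of 10, and the median of the list stayed between 0.91 and 1.13.

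Other neutrophil genes had log2 fold changes of the same size without passing the FDR. *Slfn4*, a Schlafen gene of myeloid cells, had the largest of the list, 2.73 (SE 0.94, FDR 0.262). *Clec4e*, a C-type lectin receptor of myeloid cells, had 1.20 (SE 0.40, FDR 0.253), *Il1r2*, the decoy receptor of interleukin-1, 1.81 (SE 0.61, FDR 0.261), and *Csf3r*, the receptor of granulocyte colony-stimulating factor, 1.15 (SE 0.39, FDR 0.261). *Il1b*, the interleukin-1 beta gene, was at 8.91 to 11.5 CPM in controls and 12.9 to 27.8 CPM in 14-day lungs without overlap (log2 fold change 1.03, SE 0.37, FDR 0.284). *Lcn2*, which lung epithelium also makes, and *Hdc*, the histidine decarboxylase also of mast cells, went the other way, at -0.56 and -0.42, with FDRs of 0.317 and 0.322. Granule genes of immature granulocytes were near 0, with *Elane* at 0 to 0.173 CPM and *Mpo* at 0 to 0.591 CPM in 14-day lungs and both at 0 counts in all controls. *Ly6g*, *Camp*, *Trem3* and *Stfa2l1* had too few counts for a test.

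Of the called genes outside the list, *Ccr1*, *Pram1*, *Mefv* and *Wfdc17* were picked for naming after their values were seen and were not counted as a group. *Ccr1*, a chemokine receptor, went from 6.27 ± 1.77 CPM (SD, n = 4) to 13.4 ± 5.59 (SD, n = 6) and rose by 1.07 in log2 (SE 0.30, FDR 0.181). *Pram1*, an adaptor protein of myeloid cells, rose by 1.67 (SE 0.46, FDR 0.178), *Mefv*, the pyrin of the inflammasome, by 1.18 (SE 0.35, FDR 0.202), and *Wfdc17*, a small secreted protein of activated macrophages, by 1.23 (SE 0.39, FDR 0.233). *Mrgpra2a* and *Mrgpra2b*, a neighbouring pair of receptors known from neutrophils, had the largest folds of the called genes with counts in both groups. *Mrgpra2a* rose by 2.87 (SE 0.82, FDR 0.193) and *Mrgpra2b* by 2.67 (SE 0.78, FDR 0.202), at means of 1.29 and 1.61 CPM in 14-day lungs. Reads that fit both of these related genes were split by RSEM, so their separate levels are uncertain.

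**Figure D2:**
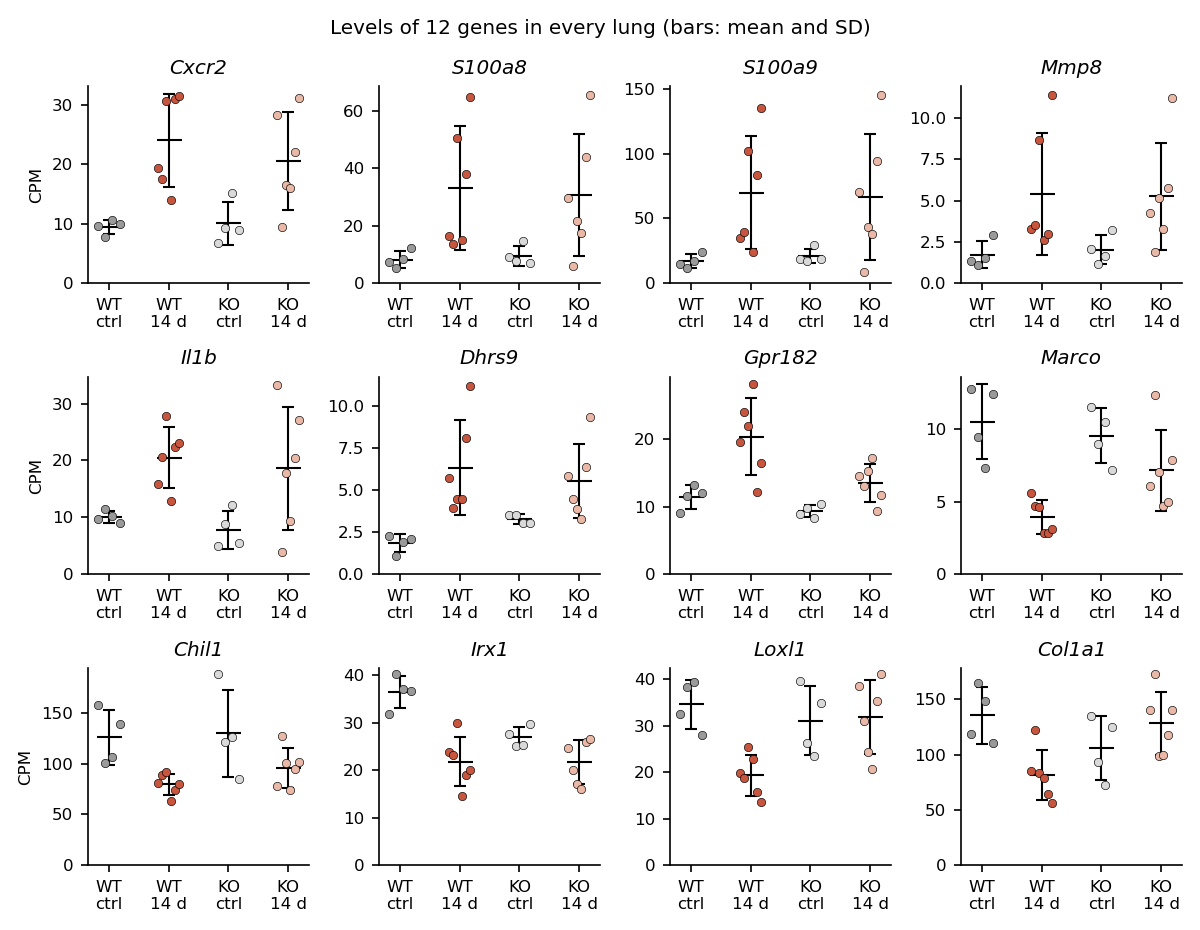
CPM of 12 genes in every lung of the 4 groups, with grey points for control and red points for 14-day lungs, paler in KO, and bars for the mean and SD. *Cxcr2* lies at 14.1 to 31.5 CPM in all 14-day WT lungs against 7.82 to 10.6 CPM in the controls, and *Marco* at 2.81 to 5.59 against 7.36 to 12.8 CPM.

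The gene with the smallest p was *Marco* (ENSMUSG00000026390, chromosome 1 from 120474538 to 120505024), a scavenger receptor by which alveolar macrophages take up particles and bacteria. It was at 12.8, 9.46, 7.36 and 12.5 CPM in controls and at 2.81, 3.88 and 5.59 CPM as the lowest, median and highest 14-day lungs, without overlap. It fell by 1.42 on the log2 scale (SE 0.25, 95% CI -1.93 to -0.90, FDR 0.0935) and passed in all 10 fits that left out a WT lung. The other 20 tested genes of the alveolar macrophage list did not pass, where 1.15% of all genes tested passed downward. The median of the list was -0.04, and it ranged from -0.11 without control replicate 2 to 0.05 without control replicate 1. The next gene of the list by p was *Fabp4*, a fatty acid carrier, with a positive log2 fold change of 0.76 (SE 0.29, FDR 0.318). The summed level of the list was 696 to 1008 CPM in controls and 795 to 1003 CPM in 14-day lungs. The monocyte list had a median of 0.18, which was -0.02 without 14-day replicate 6, and the interstitial macrophage list of -0.03, and no member of either passed.

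The B cell, T cell and natural killer cell lists had lower summed levels in most 14-day lungs, and only 1 of their genes, in the B cell list, passed. All 14 tested B cell genes had a negative log2 fold change with a median of -0.59, and 1 passed, against 1.15% of all genes tested that passed downward, and none with the GC offsets. That was *Spib*, a transcription factor of B cells and plasmacytoid dendritic cells, which fell by 0.91 (SE 0.27, FDR 0.202), from 12.03 ± 1.33 CPM (SD, n = 4) to 6.40 ± 1.82 (SD, n = 6), without overlap. *Tnfrsf13c*, the receptor of the B cell survival factor BAFF and not a member of the list, fell by 1.28 (SE 0.32, FDR 0.143). It was at 2.26 to 2.89 CPM in controls and 0.705 to 1.77 CPM in 14-day lungs. *Cd79a*, a listed subunit of the B cell receptor, had -0.83 (SE 0.32, FDR 0.322). The summed B cell level was 151 to 222 CPM in controls and 62.8 to 182 CPM in 14-day lungs, lowest in replicate 6. Of 17 T cell genes none passed (median -0.28), and of 10 tested natural killer cell genes none passed (median -0.30). Their summed levels overlapped between the groups. T cell genes were at 158 to 224 CPM in controls and 128 to 211 CPM in 14-day lungs, and natural killer cell genes at 84.0 to 152 and 50.6 to 146 CPM. Leaving out 1 lung took the T cell median as far as -0.19 without control replicate 2, and the natural killer cell median to -0.08 without control replicate 4 and -0.58 without 14-day replicate 3. *Siglech*, a lectin of plasmacytoid dendritic cells, fell by 0.97 (SE 0.31, FDR 0.242), while the dendritic cell list it belongs to had 8 of 13 tested genes positive and a median of 0.11, which was 0.04 without control replicate 3 and 0.02 without 14-day replicate 6. *Spib* passed in 4 and *Siglech* in 1 of the 10 fits that left out a WT lung.

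Replication-dependent histone genes had the same direction as the lymphocyte genes. All 15 tested members had negative log2 fold changes with a median of -0.52, and *Hist1h2bg* (-1.08, SE 0.30, FDR 0.178) and *Hist1h4a* (-0.86, SE 0.28, FDR 0.242) passed, against 1.15% of all genes tested that passed downward. With the GC offsets *Hist1h2bg* passed. Of 36 tested cell cycle genes 32 were negative with a median of -0.22, which was -0.03 without control replicate 1 and -0.34 without control replicate 3 or 4. *Mcm5* (-0.63, SE 0.17, FDR 0.160) and *Mcm2* (-0.57, SE 0.17, FDR 0.209), subunits of the helicase that opens replication origins, were the 2 that passed, against the same 1.15%. *Chaf1a*, the large subunit of the factor that places histones on new DNA and not a member of either list, fell by 0.88 (SE 0.22, FDR 0.143). The summed cell cycle level was 672, 627, 399 and 447 CPM in the controls and 399 to 591 CPM in 14-day lungs, so it was high in control replicates 1 and 2 rather than in all controls. The summed histone level ranged from 227 to 343 CPM in controls and from 140 to 323 CPM in 14-day lungs, so the groups overlapped.

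Several genes of the collagen matrix fell in 14-day lungs. Of 43 tested genes of fibrillar collagen and collagen assembly, 34 had a negative log2 fold change, 7 passed downward and 0 upward, against 1.15% of all genes tested that passed downward, and the median was -0.15. *Col6a1*, *Col6a2* and *Col6a3*, the chains of collagen VI, fell by 0.35 (SE 0.07, FDR 0.0935), 0.47 (SE 0.11, FDR 0.117) and 0.34 (SE 0.09, FDR 0.176). *Col6a1* was at 302 to 369 CPM in controls and 253 to 301 CPM in 14-day lungs, without overlap. *Col1a1* (ENSMUSG00000001506, chromosome 11 from 94936224 to 94953042), the alpha-1 chain of collagen I, was at 118, 165, 148 and 110 CPM in controls and at 56.1, 80.9 and 122 CPM as the lowest, median and highest 14-day lungs, and fell by 0.73 (SE 0.20, FDR 0.161). *Pcolce*, an enhancer of procollagen processing, *Ppib*, a prolyl isomerase of the endoplasmic reticulum, and *Col18a1* were the others that passed. With offsets that take out each library's GC trend, described further on, 4 of the 43 passed downward and the median was -0.09.

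In the elastic fiber list, 2 of 29 tested genes passed and both fell, against 1.15% of all genes tested, and the median was -0.15, or -0.10 with the GC offsets. *Loxl1* (ENSMUSG00000032334, chromosome 9 from 58287738 to 58313186), a lysyl oxidase that crosslinks elastin, was at 32.4, 38.4, 39.4 and 28.0 CPM in controls and at 13.5, 19.3 and 25.3 CPM as the lowest, median and highest 14-day lungs. The groups did not overlap and the log2 fold change was -0.83 (SE 0.19, FDR 0.116). *Mfap4*, a microfibril protein, fell by 0.53 (SE 0.14, FDR 0.171). Of 21 tested genes of matrix proteases and their inhibitors, 1 passed upward and 1 downward, against 1.18% and 1.15% of all genes tested, and the median was 0.04. *Mmp8* was the one that rose, and *Mmp15*, a membrane-bound metalloproteinase, fell by 0.45 (SE 0.12, FDR 0.157). Neither passed with the GC offsets. *Adamts17* and *Adamts12*, secreted metalloproteinases outside the list, fell by 0.70 (SE 0.17, FDR 0.128) and 0.86 (SE 0.23, FDR 0.171). *Mmp9*, the gelatinase, was at 5.66 to 8.20 CPM in controls and 4.50 to 15.2 CPM in 14-day lungs (log2 fold change 0.58, SE 0.43, FDR 0.623).

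Of 19 alveolar type 2 genes, 3 passed and all fell, against 1.15% of all genes tested, with a median of -0.17 for the list. With the GC offsets 1 of the 3 passed. *Chil1*, a chitinase-like secreted protein, was at 100 to 158 CPM in controls and 62.9 to 91.3 CPM in 14-day lungs, without overlap (-0.66, SE 0.17, FDR 0.158). *Napsa*, the protease of surfactant protein maturation, fell by 0.28 (SE 0.07, FDR 0.165) and *Sftpb*, surfactant protein B, by 0.26 (SE 0.08, FDR 0.209). Among 17 alveolar type 1 genes 1 passed, against the same 1.15%, and this was *Gprc5a*, which fell by 0.32 (SE 0.07, FDR 0.101). *Irx1* (ENSMUSG00000060969, chromosome 13 from 71957921 to 71963723), an Iroquois homeobox factor of the lung outside these lists, was at 31.8, 40.2, 37.0 and 36.6 CPM in controls and at 14.6, 21.7 and 29.8 CPM in 14-day lungs, without overlap (-0.74, SE 0.15, FDR 0.0935). The lists of airway epithelium had medians of 0.07 (club cell) and 0.09 (ciliated cell), with 0 and 1 members that passed, against 1.18% of all genes tested that passed upward, and both medians were 0.01 without control replicate 1.

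Endothelial genes were close to the controls. Of 36 genes 1 passed, *Gpr182*, an atypical chemokine receptor of lymphatic and capillary endothelium, against 1.18% of all genes tested that passed upward. The median of the list was -0.05, -0.0019 with the GC offsets and -0.0055 without control replicate 2. *Gpr182* was at 9.04 to 13.2 CPM in controls and at 12.2, 20.8 and 28.3 CPM as the lowest, median and highest 14-day lungs (0.84, SE 0.19, FDR 0.113). Among genes outside the list, *Klf2*, a factor that endothelium makes under flow, fell by 0.67 (SE 0.20, FDR 0.202) and *Nrp1*, a co-receptor of VEGF, by 0.17 (SE 0.05, FDR 0.209). *Kdr*, a listed gene and the main VEGF receptor, had -0.10 (SE 0.06, FDR 0.510). *Angpt2*, a destabilizing angiopoietin outside the list, had 0.02 (SE 0.12, FDR 0.969). *Clic4* itself was at 165 ± 6.61 FPKM (SD, n = 4) in control and 181 ± 30.6 FPKM (SD, n = 6) in 14-day lungs (log2 fold change of the counts 0.13, SE 0.10, FDR 0.627), and its paralog *Clic3* fell by 0.34 (SE 0.09, FDR 0.178).

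Among metabolic genes, *Dhrs9* (ENSMUSG00000027068, chromosome 2 from 69380445 to 69404533), a dehydrogenase of retinol and steroids, had the smallest p of those that rose. It was at 2.29, 1.09, 1.89 and 2.11 CPM in controls and at 3.94, 5.13 and 11.3 CPM as the lowest, median and highest 14-day lungs, a 3.35-fold difference without overlap (log2 1.74, SE 0.34, FDR 0.0935) that passed in all 10 fits without a lung. Of 17 tested genes of the retinoid and steroid dehydrogenase list, 3 rose and 2 fell, against 1.18% and 1.15% of all genes tested, and with the GC offsets 1 and 2 passed. *Aldh1a1*, which makes retinoic acid, rose by 0.30 (SE 0.10, FDR 0.242), while *Dhrs3*, which turns retinal back into retinol, and *Rarb*, a retinoic acid receptor and target gene, fell by 0.37 (SE 0.08, FDR 0.113) and 0.42 (SE 0.13, FDR 0.209). *Cyp2e1*, a cytochrome that oxidizes ethanol and small solvents, rose by 0.76 (SE 0.21, FDR 0.178). *Ppp1r3d* and *Ppp1r3b*, which bring a phosphatase to glycogen, rose by 1.26 (SE 0.27, FDR 0.0996) and 0.70 (SE 0.18, FDR 0.157). *Cry1*, a repressor of the circadian clock, rose by 0.61 (SE 0.20, FDR 0.233). The other 22 clock genes did not pass, where 1.18% of all genes tested passed upward.

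Signaling genes that passed went both ways. *Wnt10b*, a Wnt ligand, fell by 0.84 (SE 0.21, FDR 0.143) and *Lgr4*, the receptor of R-spondins that strengthens Wnt signals, rose by 0.54 (SE 0.14, FDR 0.157). Of 39 tested genes of the TGF-beta and BMP list, whose median was -0.01, 2 passed upward and 2 downward, against 1.18% and 1.15% of all genes tested. *Smad5* and *Bmpr1a* rose by 0.16 (SE 0.05, FDR 0.238) and 0.19 (SE 0.06, FDR 0.229), while *Bmp6*, a ligand, and *Id1*, a target gene of BMP signals, fell by 0.23 (SE 0.07, FDR 0.246) and 0.56 (SE 0.17, FDR 0.209). None of these 4 passed with the GC offsets. *Osmr*, the receptor of the interleukin-6 family member oncostatin M, rose by 0.24 (SE 0.06, FDR 0.1501). *Corin*, a protease that activates natriuretic peptide, and *Rab3c*, a small GTPase of secretory vesicles, rose by 0.90 (SE 0.22, FDR 0.129) and 1.20 (SE 0.30, FDR 0.143). *Slc6a2*, the noradrenaline transporter of sympathetic nerves and lung endothelium, rose by 0.70 (SE 0.20, FDR 0.193). Of the cytokine and chemokine list none of 28 tested genes passed, and *Csf3*, *Il4*, *Il10*, *Il13*, *Tnf* and *Ccl8* had too few counts for a test.

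Interferon-induced genes differed more within the groups than between them. Of 33 genes of the type I interferon list none passed, although 32 had a positive log2 fold change and the median was 0.53. The summed level was 4844 CPM in 14-day replicate 5 and 828 to 1516 CPM in the other 14-day lungs, and it was 2162 CPM in control replicate 4 and 955 to 1059 CPM in the other controls. *Ifit3* followed this, at 48.9 to 137 CPM in controls and at 51.0, 83.8 and 442 CPM as the lowest, median and highest 14-day lungs. Without 14-day replicate 5 the median of the list was -0.16, and the interferon gamma list, in which none of 29 tested genes passed, went from 0.35 to 0.01. Without control replicate 4 the medians were 0.98 and 0.53. Without 14-day replicate 5, 101 genes were called and 387 passed at any fold, of which 68 were among the 92 and 280 among the 373.

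**Figure D3:**
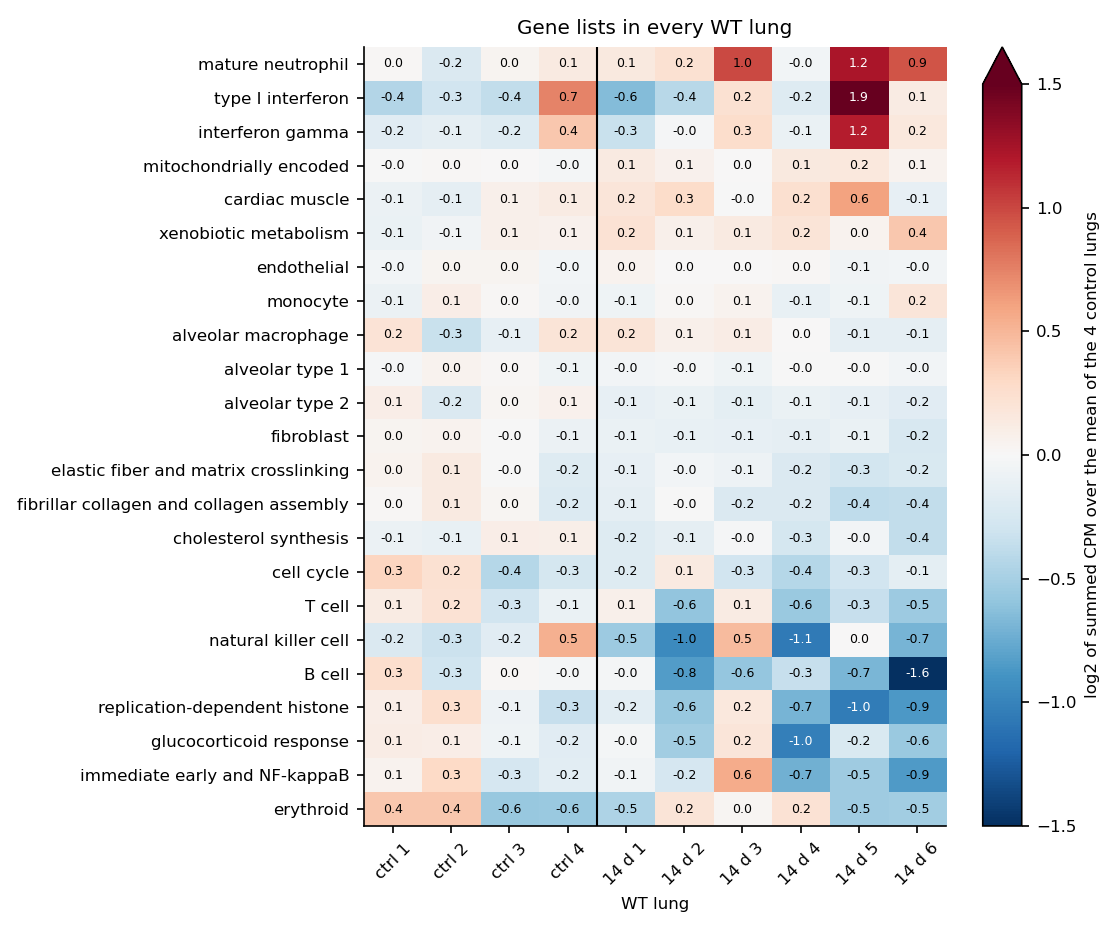
Summed CPM of 23 gene lists in each of the 10 WT lungs, as log2 of the ratio to the mean of the 4 control lungs, with red for higher and blue for lower. Neutrophil genes are high in 14-day replicates 3, 5 and 6, interferon genes in 14-day replicate 5 and control replicate 4, and endothelial and alveolar type 1 lists stay near 0 in all lungs.

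GC content of the genes moved with the difference between the groups. For each library the log2 CPM of every gene relative to the mean of the 20 lungs was regressed on the GC content of its transcript, and the slope is given per 10 percentage points of GC. In the control lungs the slopes were 0.0459, 0.111, 0.157 and 0.0256, and in the 14-day lungs -0.151 at the lowest, -0.00927 at the median and 0.0755 at the highest. The lowest was that of replicate 5, and the next was -0.0519 in replicate 6. All controls were above 0 and replicates 1, 4, 5 and 6 of the 14-day lungs below it, and the means differed by -0.104 (two-sided exact permutation test, p = 0.0571, where 6 against 4 lungs can reach 0.00952). Without 14-day replicate 5 the means differed by -0.0772 (exact permutation test, p = 0.0714). In KO lungs the difference had the other sign, 0.0499. With genes cut into 10 equal bins by GC, in the bin richest in GC the median log2 fold change in WT lungs was -0.13, and in the poorest bin it was 0.10.

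The genes that passed the FDR at any fold followed the same order. The median GC content was 43.7% in genes that were higher and 54.7% in genes that were lower at any fold, against 49.3% over all genes tested. In the bin poorest in GC 48 were higher and 1 was lower, and in the richest bin 1 was higher and 46 were lower. With offsets that take out each library's GC trend, 147 genes passed the FDR at any fold, 130 of them among the 373, and 53 were called, 49 of them among the 92. All 373 kept their direction, and the log2 fold change was smaller in 309. *Marco* (FDR 0.130), *Dhrs9* (0.130), *Gpr182* (0.172), *Cxcr2* (0.181), *Irx1* (0.192), *Loxl1* (0.192), *S100a8* (0.231), *S100a9* (0.231), *Chil1* (0.231) and *Col1a1* (0.233) still passed with the offsets. *Klf2* (0.436), *Sftpb* (0.407), *Napsa* (0.392), *Spib* (0.320), *Mmp8* (0.320), *Pcolce* (0.342) and *Col18a1* (0.424) did not. Nor did *Clic3* (0.478), *Mmp15* (0.389), *Nrp1* (0.323), *Siglech* (0.320), *Cry1* (0.314), *Aldh1a1* (0.384), *Col6a3* (0.320), *Mcm2* (0.359), *Ccr1* (0.300) and *Mefv* (0.274). Of 75 named genes that passed in WT lungs, 32 no longer passed with the offsets. Other shares of the libraries moved with the groups too. 7S RNAs took 10.1 to 11.8% of counts in controls and 8.33 to 10.3% in 14-day lungs, and mitochondrially encoded genes 7.78 to 8.60% and 8.33 to 10.1%. The part of these shares in the differences was not tested.

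**Figure D4:**
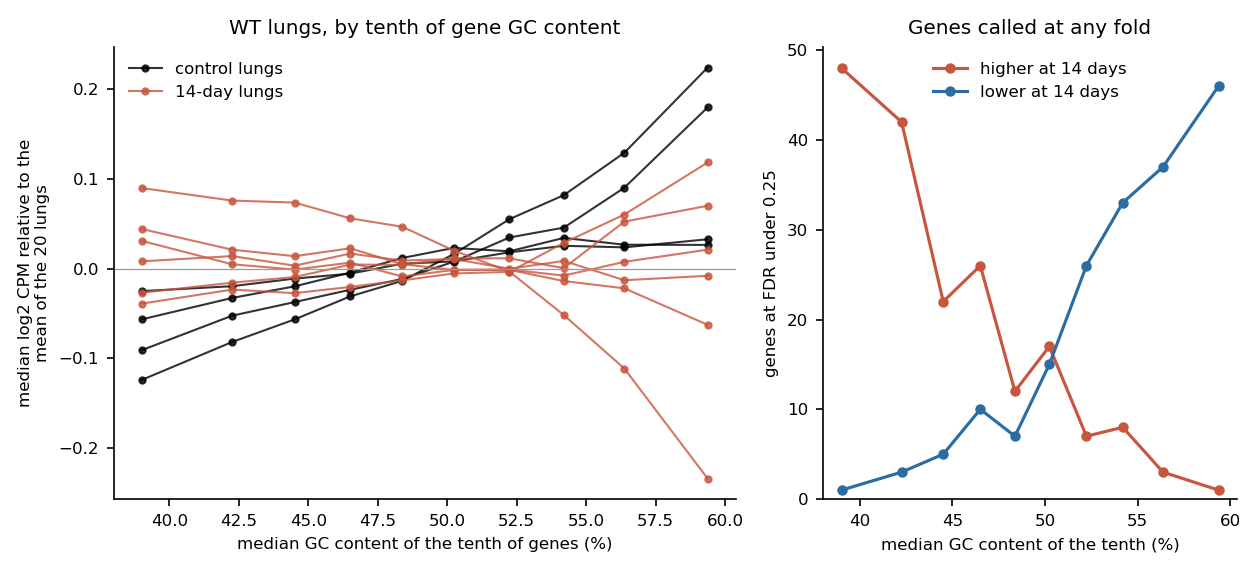
Left, median log2 CPM relative to the mean of the 20 lungs in each of 10 bins of genes by GC content, with 1 line for each WT lung, black for control and red for 14-day lungs. Right, the number of genes at an FDR under 0.25 in each bin. Genes higher at 14 days drop from 48 in the GC-poorest bin to 1 in the richest, and genes lower at 14 days go from 1 to 46.

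Groups of housekeeping genes were described beside the GC trend. The 13 mitochondrially encoded genes, of low GC content, had a median log2 fold change of 0.21, and *mt-Nd2* (0.22, SE 0.07, FDR 0.209) and *mt-Nd3* (0.35, SE 0.11, FDR 0.209), subunits of respiratory complex I, passed, against 1.18% of all genes tested that passed upward. With the GC offsets the median was 0.10 and neither passed, and without control replicate 4 it was 0.12. Of 79 tested genes of cytosolic ribosomal proteins 3 passed and fell, against 1.15% of all genes tested, *Rpl10a* by 0.36 (SE 0.08, FDR 0.117), *Rpl3* by 0.25 (SE 0.07, FDR 0.171) and *Rpl28* by 0.26 (SE 0.08, FDR 0.209), with a median of -0.10 for the list, or -0.07 with the offsets, where 1 passed. Of 74 nuclear genes of oxidative phosphorylation 2 passed and fell, against the same 1.15%, *Uqcr11* by 0.49 (SE 0.11, FDR 0.0987) and *Atp5d* by 0.32 (SE 0.10, FDR 0.209), with a median of -0.08, or -0.05 with the offsets, where 1 passed. The median GC content of these lists was 51.8% and 51.1%, near that of all genes tested.

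Gene models other than protein-coding genes took a large part of the called genes that were higher. Of the 53, 32 were protein-coding and 14 belonged to the biotype TEC, unspliced models still without experimental proof, which is 26.4% of the 53 and 5.05% of the genes tested. None of the 39 lower genes was of that biotype. The median GC content of TEC genes was 41.4%, and their median log2 fold change was 0.09 in WT lungs, 0.03 with the GC offsets, and -0.07 in KO lungs. Of the 12 called and higher genes with the smallest p, 3 were TEC genes and 1 was the processed transcript *Gm15832*, and *Gm20631*, an antisense gene, was among the 12 lower. The processed pseudogene *Rps12l1* had no count in any control lung and 14 to 135 counts in every 14-day lung, so its level was at least 24.6-fold higher against a floor of 3 counts in each control library. It had 37 counts in 1 of the 4 KO control lungs and 0 in the other 3, and 0 to 65 counts in the KO 14-day lungs. The TEC gene *Gm37371*, also at 0 in all WT controls, had 0 to 128 counts in 14-day lungs and 0 in replicates 1 and 4.

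In KO lungs, compared between 14 days (n = 6) and control (n = 4) in the same fit, 38 of the 53 called and higher genes (71.7%) and 22 of the 39 lower genes (56.4%) had the same sign, against 52.4% of all genes tested. With the GC offsets these were 38 of 53 and 26 of 39, against 9052 of the 16029 genes. The median log2 fold change of the 53 was 0.97 in WT and 0.43 in KO lungs, and that of the 39 was -0.85 in WT and -0.02 in KO lungs. Of the 92, 4 also passed the FDR in KO lungs, where 169 of all genes tested did (1.05%). The 4 neutrophil genes that passed in WT lungs had positive values there too, with *S100a8* at 1.67 (SE 0.54), *S100a9* at 1.68 (SE 0.55), *Mmp8* at 1.40 (SE 0.51) and *Cxcr2* at 1.02 (SE 0.30) in KO lungs, and the unadjusted p of the difference between genotypes lay between 0.443 and 0.717. The median of the neutrophil list was 1.02 there. *Fpr2* and *Fpr1*, formyl peptide receptors, and *Ltf*, lactoferrin, had positive values in WT lungs (0.15, 0.37 and 0.54) and negative ones in KO lungs (-0.43, -0.20 and -0.30), with unadjusted p of the difference from 0.0345 to 0.0777. Outside the list, *Ppp1r3d* had 1.16 (SE 0.27, FDR 0.126). *Marco* had -0.41 in KO lungs (unadjusted p of the difference 0.00846, FDR 0.438), *Loxl1* 0.03 (0.00413, FDR 0.403) and *Col1a1* 0.27 (0.00169, FDR 0.322), so none of these differences passed. The B cell list had a median of 0.36 and the histone list of 0.22 in KO lungs. The collagen, alveolar type 2 and elastic fiber lists had medians of -0.12, -0.15 and -0.03 there, against -0.15, -0.17 and -0.15 in WT lungs.

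**Figure D5:**
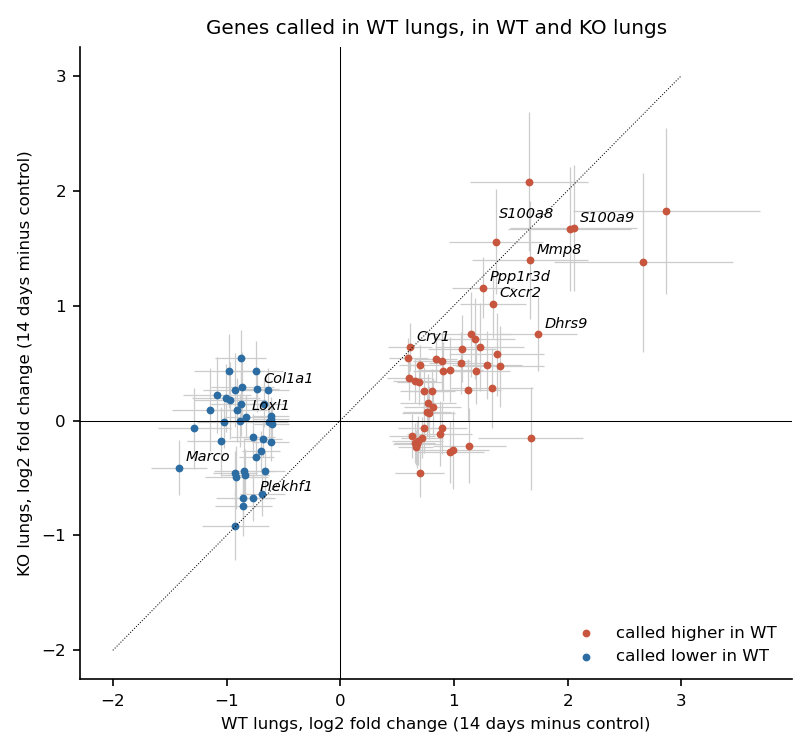
Log2 fold change (14 days minus control) in WT lungs on the x axis and in KO lungs on the y axis for the 92 genes called in WT lungs, without *Rps12l1* and *Gm37371*, with SE bars and a dotted line of equal values. Neutrophil genes lie near the line at 1.02 to 1.68 in KO lungs, and the genes that were lower in WT lungs scatter around 0 in KO lungs.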

How the data were processed

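Bulk RNA of lung tissue was sequenced from 6 WT mice at 14 days and 4 WT controls, and from as many KO mice. The authors aligned reads to GRCm38 (mm10 in the submitters' processing notes) with STAR and deposited expected counts per gene from RSEM as whole numbers without normalization, so shared reads of paralogs were divided between them. The authors also deposited FPKM values from RSEM, used here only for levels per length. Groups follow the labels. Where nothing names a litter or day, p-values measure the spread between these animals. The members and lists were chosen with earlier results of these data known.

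Genes that passed edgeR's filterByExpr (16029 of 29511) were fitted with edgeR 4.0.16 (R 4.3.3), with TMM scaling, the quasi-likelihood test and 1 mean per group over the 20 lungs. An FDR under 0.25 with a 1.5-fold change made a call, and lists were counted at that FDR. The SE is the log2 fold change divided by the square root of F. GC content came from the longest GENCODE M21 transcript (coding first), with a pseudocount of 0.5 CPM for slopes. The slopes of the WT groups were compared by an exact permutation test. Of 57 lists with 1292 genes, 1168 genes were tested. Genes were named by p, fold, list membership and the proteins that the study measured. *Ccr1*, *Pram1*, *Mefv*, *Wfdc17*, *Adamts12*, *Slc6a2* and *Gm19325*, outside that rule, were picked after their values were seen. Of the genes tested, 10772 had a promoter window in the RefSeq table, of which the first per symbol was searched on both strands for the E-box CACGTG, the CRE motif TGACGTCA, the AP-1 motif TGACTCA, the GC box GGGCGG, the CCAAT box CCAATC, the C/EBP motif TTGCGCAA, the SREBP motif TCACNCCAC, the NF-kappaB motif GGGACTTCC, the STAT motif TTCNNNGAA, the TATA box TATAAA and, by name, the CArG box and DR1 motifs. Alternatives were DESeq2 1.42.0, RLE scaling, other filters, WT lungs alone, GC offsets (loess with a span of 0.5 in each library), a replicate block, and each WT lung left out. The scripts were tested on simulated data. Replicates of a group differed by a chi-squared of 2.93 to 9.90 per degree of freedom, so all were counted as separate samples.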

Additional observations from a re-analysis of the deposited data

Results flagged for a closer look

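A lung that stood far from the others of its group was looked for in 118 groups of values, where chance gives about 1 in 20, and 8 were found. The summed level of the type I interferon list was 4844 CPM in 14-day replicate 5 and 2162 CPM in control replicate 4, and that of the interferon gamma list was 3639 and 2123 CPM in the same lungs. Control replicate 4 also had the highest natural killer cell level, 152 CPM, and the lowest levels of *Adamts17* (9.40 CPM) and *Wbscr17* (1.46 CPM) among controls. In 14-day replicate 2, *Tnfrsf13c* was at 1.77 CPM, above the other lungs of that group.

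The difference between genotypes in the response to the tumor passed an FDR of 0.25 in edgeR's interaction test in 8 genes, each with a lower log2 fold change in WT than in KO lungs. It was -0.86 for *Nfix*, a nuclear factor I gene, -1.33 for the pseudogene *Rpl15-ps3*, -0.58 for *Mgat4b*, -0.50 for *Lrp10*, -0.79 for *Ltbp4*, which binds latent TGF-beta, -0.67 for *Rnf44*, -0.37 for *Zc3h7b* and -0.74 for *Prrc2a*. With the GC offsets 1 gene passed that test.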

How the results depend on the processing

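Against 92 genes called, 23 were called with DESeq2 on the 20 lungs, 58 with no filter on low counts, 152 with the replicate block, 53 with GC offsets and 0 at an FDR of 0.05. Against 373 genes at any fold, there were 143 with no filter, 582 with the block and 147 with GC offsets. At an FDR under 0.05, 79 genes passed with DESeq2 on the 20 lungs, 105 with DESeq2 on the 10 WT lungs, 13 with the block and 17 with GC offsets and the block. The count of genes that differed between genotypes was 198 with DESeq2, and 1 with the block, with GC offsets or with both. With each WT lung left out in turn, called genes were 11 to 176, genes at any fold 43 to 753, genes at an FDR under 0.05 0 to 4 and genes that differed between genotypes 1 to 123. Leaving out control replicates 1, 2 and 3 gave 21, 11 and 24 called genes, and 14-day replicates 3 and 6 gave 176 and 36. At any fold, leaving out control replicates 1 to 4 gave 57, 43, 69 and 212 genes, and 14-day replicates 1, 3, 4 and 6 gave 237, 753, 208 and 130. The cause of these changes was not tested.

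Of the called genes 57.6% were higher, which became 44.8% with no filter, 40.1% with the block, 36.1% with GC offsets and the block, and 28.6 to 62.5% with a lung left out. The replicate numbers name different animals and the correlations of deviations of equally numbered WT lungs were 0.132, 0.236, 0.0158 and -0.0147, so the lungs were not taken as pairs, and 2 of 4 control lungs correlated best with the 14-day lung of their own number. The GC slope difference was -0.104, and -0.123 (exact permutation test, p = 0.0476) without control replicate 4 and -0.122 (p = 0.0238) without 14-day replicate 3, within a range of -0.123 to -0.0772 over the lungs left out, and p was 0.131 without control replicate 2 and 0.143 without control replicate 3. The median of the mitochondrial list moved from 0.21 to 0.10 with GC offsets. Of 75 named genes that passed, 60, 64, 52 and 23 no longer passed without control replicates 1 to 4, 41 without 14-day replicate 6, 32 with GC offsets, 28 with no filter and 8 with the block, and none changed direction where tested. Genes with too few counts for the filter, such as *Ly6g* and *Csf3*, were not tested at this depth.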

Other observations

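Other lists gave no called theme. Of 25 cholesterol synthesis genes 1 passed, *Mvk*, mevalonate kinase, which fell by 0.38 (SE 0.12, FDR 0.228), against 1.15% of all genes tested that passed downward, and it did not pass with the GC offsets. The median of the list was -0.18. Glucocorticoid response genes had a median of -0.26 and immediate early genes of -0.18 (-0.10 with the GC offsets). Of 37 tested immediate early genes *Klf2* alone passed, against 1.15% of all genes tested that passed downward, and it did not pass with the offsets. The summed levels of both lists ranged widely among 14-day lungs, from 1523 to 3510 CPM and from 1804 to 4798 CPM. With 1 lung left out, the immediate early median ranged from -0.44 without 14-day replicate 3 to -0.04 without control replicate 2, and the glucocorticoid median was -0.17 without 14-day replicate 4. Erythroid genes, whose summed level was 3324 to 6552 CPM in controls and 3400 to 5737 CPM in 14-day lungs, had a median of -0.03, which ranged from -0.24 to 0.16 with a lung left out. Heart muscle genes had a median of 0.17, and 0.08 without 14-day replicate 5, and a summed level of 2749 CPM in 14-day replicate 5 against 1656 to 1978 CPM in controls. Adipocyte genes had a median of 0.43, which was 0.16 without 14-day replicate 5, 0.26 without 14-day replicate 3 and 0.57 without 14-day replicate 6.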
